A study of Mus musculus with 10 samples.

Results

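The NRF2 antioxidant genes are a list of 10 genes chosen by name: the transcription factor gene Nfe2l2, its inhibitor Keap1, and 8 genes for glutathione, thioredoxin, heme and NADPH metabolism. The list was drawn up with earlier results of these data known. All 10 were present among the 33006 genes of the count table. NRF2, the product of Nfe2l2, is a stress-responsive activator that KEAP1 binds and hands to a CUL3 ubiquitin ligase under resting conditions. Oxidants and electrophiles modify KEAP1, NRF2 escapes degradation, pairs with small MAF proteins and binds antioxidant response elements (AREs) near its target genes. GSK3 marks NRF2 for a second ubiquitin ligase, and BACH1 competes with NRF2 at some of the same elements, above all at Hmox1.

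RNA came from E14 mouse embryonic stem cells whose NPM1, a nucleolar histone chaperone, carries an auxin-inducible degron, so that auxin removes the protein. After arrest in G1, cells were let go and collected 12 h later, with auxin in 2 libraries and without it in 2 libraries; the study asked whether NPM1 is needed to pass on repressed chromatin. All 4 libraries shared the degron genotype and a medium with LIF and a pair of kinase inhibitors, PD0325901 (against MEK, 1 µM) and CHIR99021 (against GSK3, 3 µM), and the file names in the count table's header point to 1 clone. No library of cells without the degron was analysed here, so an effect of auxin itself and an effect of NPM1 loss cannot be told apart. For the mark H3K27me3, 1 ChIP-seq sample labelled 6 h without auxin and 1 control CUT&RUN sample at 12 h were used. The CUT&RUN samples of this mark labelled auxin, and auxin with PRC2i, were not used here.

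The libraries held 13353446 to 16046290 counted fragments, and mitochondrial transcripts took 3.46% to 4.96% of them, with no split by group. All 7 markers of embryonic stem cells stood above 1 CPM, the depth-normalised read count with TMM-scaled library sizes, in every library, with Pou5f1 between 1119 and 1385 CPM. Of the stem cell markers, 4 fell and 1 rose with auxin, Pou5f1 and Sox2 among the fallers. As background for the marker calls, 13.0% of all 13522 genes tested were called higher and 14.5% lower. The 7 fibroblast markers summed to 9.55 to 11.7 CPM without auxin and 16.4 to 23.0 CPM with it, and 1 of 4 tested rose. Pdgfrb, at up to 15.2 CPM, made up most of the sum in the highest library, and each other fibroblast marker stayed at or under 3.17 CPM. The 6 primitive endoderm markers summed to 15.2 to 17.8 CPM without auxin and at least 24.6 CPM with it, and 2 of 6 tested rose. Trophectoderm markers summed to 134 to 147 CPM without auxin and 151 to 163 CPM with it, with 3 of 6 tested higher and 1 lower. Neuroectoderm markers summed to 116 to 119 and 134 to 135 CPM, with 2 of 4 tested higher and 1 lower. Blood markers stayed at or under 3.03 CPM, with the globins Hbb-bs and Hba-a1 at 0 in all libraries, as was the trophectoderm marker Elf5. Whether these shifts take part in the results that follow was not tested. In RNA from whole cultures, more cells of a type and more RNA per cell cannot be told apart. The degron acts on the protein, so Npm1 RNA does not check the labels: it fell from 1058 and 951 CPM to 843 and 767 CPM (edgeR adjusted p = 0.00338).

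Stretches of 4 promoters are shown because the ARE is the element through which NRF2 acts. Windows from 250 bases before to 50 bases after the RefSeq start (build GRCm38.p6) were read for 7 of the 10 genes, and none was used for Hmox1, Gclc and Gsr. The ARE core was searched as TGACNNNGC and the AP-1 motif, which can be part of an ARE, as TGANTCA, both on either strand. The stretches below are written 5′ to 3′ on the gene's strand, with the match in capitals.
Nfe2l2, ARE core, chr2:75704875-75704913, minus strand: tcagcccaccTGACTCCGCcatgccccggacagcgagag
Gclm, ARE core on the opposite strand, chr3:122245403-122245451, plus strand: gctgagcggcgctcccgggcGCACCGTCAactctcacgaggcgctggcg
Txnrd1, ARE core on the opposite strand, chr10:82859094-82859142, plus strand: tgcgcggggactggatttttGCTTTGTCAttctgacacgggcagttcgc
Srxn1, AP-1 motif, chr2:152105402-152105448, plus strand: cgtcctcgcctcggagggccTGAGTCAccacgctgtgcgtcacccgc
Srxn1, AP-1 motif, chr2:152105459-152105505, plus strand: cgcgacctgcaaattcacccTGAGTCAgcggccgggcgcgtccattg
The matches began 240 bases before the start of Nfe2l2, 134 before that of Gclm and 92 before that of Txnrd1, and the Srxn1 motifs began 102 and 45 bases before its start. Srxn1 and G6pdx each held a further ARE core, after the start of Srxn1 and within an annotated exon of G6pdx. An ARE core was thus found in 5 of the 7 genes (1 of 3 windows for Txnrd1), against 14% of all 27025 genes with a window (12.4% of 32851 windows). Of 31 further NRF2 targets with a window, from the list described below, 9 held an ARE core. No ARE core match of the 7 genes, with TGAC as its first letters, overlapped an AP-1 match. The Srxn1 motif 45 bases before the start is followed by gc, and a core with TGAG in place of TGAC was not searched. The AP-1 motif lay in Srxn1 alone of the 7, against 8.97% of all genes with a window (7.81% of windows). A match describes letters only, and genes with a match include both genes that rose with auxin and genes that were not called.

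With auxin, Srxn1 rose 2.18-fold, and both subunits of the glutathione-making ligase and Nfe2l2 itself rose by smaller amounts, while Hmox1, Txnrd1, Gsr, Keap1 and G6pdx were not called and Slc7a11 was barely detected. Of 9 genes tested, 4 rose, none fell and 5 were not called (edgeR quasi-likelihood test, Benjamini-Hochberg adjusted p under 0.05 over 13522 genes). Among all genes tested, 13.0% were called higher and 14.5% lower. Without adjustment, edgeR gave p under 0.05 for 4 higher genes and 1 lower gene, and DESeq2 called 4 higher and none lower, also without adjustment. The median log2 fold change of the 9 genes was 0.15, against 0.01 for all genes tested. Because the list was chosen with earlier results of these data known, these comparisons describe it and do not test it. The lowest level of any tested gene in any library was 27.9 CPM, so none passed the expression filter through 1 group alone. With plain library totals in place of TMM factors, 7 rose, and the median of all genes moved to 0.11. That scaling raised the share of all calls that were higher from 47.2% to 73.5%.

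**Figure D1:**
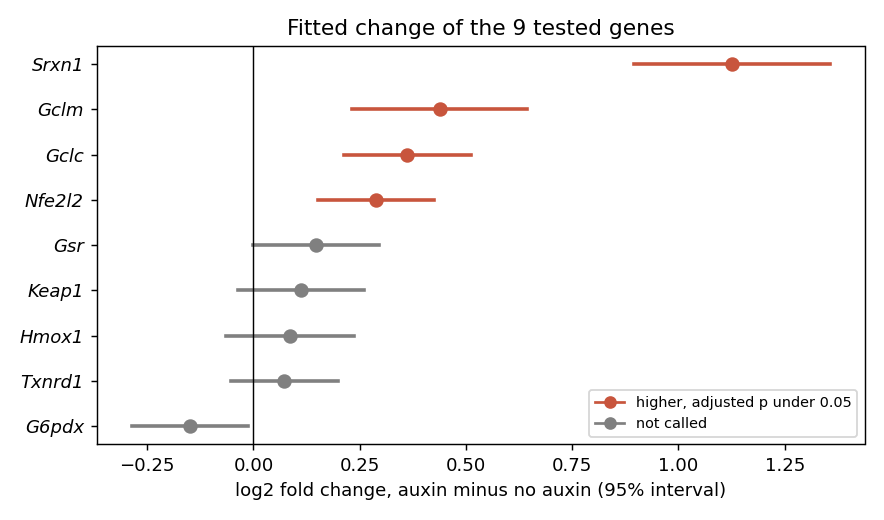
Fitted log2 fold change (points, x axis) with its 95% interval (lines) for the 9 tested genes on the y axis, auxin minus no auxin, 2 libraries per group. Srxn1 stands at 1.13, Gclm, Gclc and Nfe2l2 between 0.29 and 0.44, and the 5 grey genes between −0.15 and 0.15.

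At the head of the pathway, Nfe2l2 rose and its inhibitor was not called. Nfe2l2 (chromosome 2, 75675513 to 75704641, mm10, minus strand) stood at 141 and 129 CPM without auxin and at 159 and 169 CPM with it. Both auxin libraries lay above both others, a pattern found upward in 33.0% of all genes tested and downward in 31.8%. Nfe2l2 rose 1.22-fold (log2 fold change 0.29, SE 0.06, edgeR adjusted p = 0.00577), and 21.7% of tested genes had a higher log2 fold change. Without replicate 2 of the libraries without auxin, the call was lost (0.22, adjusted p = 0.0539). Keap1 (chromosome 9, 21229730 to 21239332, minus strand), the cysteine-rich sensor, stood at 58.2 and 60.3 CPM without auxin and 63.6 and 64.4 CPM with it. The groups did not overlap, but the change was not called (log2 fold change 0.11, 95% interval −0.04 to 0.26, adjusted p = 0.242). Of the 10 other settings, it passed the threshold only with plain library totals (0.21, adjusted p = 0.0492), and its lowest value was 0.08. Per kb of exon, Nfe2l2 RNA was 2.85 and 2.51 times Keap1 RNA without auxin and 2.95 and 3.09 times with auxin. This ratio does not depend on the scaling of the libraries, and its groups did not overlap. The gene pairs whose ratios are given were chosen after their values were seen, and an exact two-sided permutation test of 2 libraries against 2 cannot go below p = 0.333.

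Srxn1 encodes sulfiredoxin, which uses ATP to repair peroxiredoxins that peroxide has overoxidized, and it had the largest log2 fold change of the 9 tested genes. Its level (chromosome 2, 152105516 to 152111376, plus strand) was 27.9 and 30.0 CPM without auxin and 70.2 and 56.7 CPM with it. Both auxin libraries lay far above both others, and they were also farther apart from each other. Srxn1 rose 2.18-fold (log2 fold change 1.13, SE 0.10, edgeR adjusted p = 3.2e-05). Only 2.54% of tested genes had a higher log2 fold change. Over the 10 other settings tried, the log2 fold change ran from 0.97 to 1.28 and the call held in each. Txnrd1, the cytosolic thioredoxin reductase, a selenoprotein that returns electrons from NADPH to thioredoxin, was the most abundant of the 10 genes per kb. Its level (chromosome 10, 82859206 to 82897724, plus strand) was 296 and 290 CPM without auxin and 325 and 292 CPM with it. The groups overlapped and the change was not called (log2 fold change 0.07, 95% interval −0.05 to 0.20, adjusted p = 0.377). It turned to −0.0074 without auxin replicate 1, stood at 0.15 without auxin replicate 2 (adjusted p = 0.0917), and passed the threshold with plain library totals (0.17, adjusted p = 0.0401). Srxn1 RNA per kb was 0.114 and 0.125 of Txnrd1 RNA without auxin, and 0.262 and 0.235 of it with auxin, and the groups did not overlap. The difference between these genes was not tested.

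The catalytic subunit Gclc and the modifier subunit Gclm form glutamate-cysteine ligase, the rate-limiting enzyme of glutathione synthesis, and both rose. Gclc (chromosome 9, 77754535 to 77794485, plus strand) went from 70.1 and 64.8 CPM to 88.6 and 84.8 CPM, with both auxin libraries above both others. It rose 1.29-fold (log2 fold change 0.36, SE 0.07, edgeR adjusted p = 0.00272). Gclm (chromosome 3, 122245557 to 122269984, plus strand) went from 82.3 and 72.6 CPM to 116 and 94.7 CPM, again without overlap, and the auxin replicate with more Gclm was also the one with more Srxn1. Gclm rose 1.36-fold (log2 fold change 0.44, SE 0.09, edgeR adjusted p = 0.00541). Both calls held under all 10 other settings, with adjusted p of at most 0.0220 for Gclc and 0.0158 for Gclm. The log2 fold change ran from 0.30 to 0.46 for Gclc and from 0.29, without auxin replicate 1, to 0.58, without auxin replicate 2, for Gclm. Gclc RNA per kb was 1.38 and 1.45 times Gclm RNA without auxin and 1.24 and 1.45 times with auxin, so the ratio of the subunits overlapped between the groups.

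Gsr encodes glutathione reductase, which regenerates reduced glutathione with NADPH. It stood (chromosome 8, 33652523 to 33698163, plus strand) at 184 and 183 CPM without auxin and at 218 and 188 CPM with it. The libraries without auxin were nearly equal and both below the others, but the auxin libraries differed from each other by more than the lower of them differed from the controls. The change was not called (log2 fold change 0.15, 95% interval −0.0011 to 0.30, adjusted p = 0.128). It passed without auxin replicate 2 (0.26, adjusted p = 0.00333), with plain library totals (0.24, adjusted p = 0.0157) and with the replicate number as a block (0.14, adjusted p = 0.000849). Without auxin replicate 1 the value was 0.03 (adjusted p = 0.777). Slc7a11, the cystine carrier of the xCT exchanger that supplies cysteine for glutathione, was counted 4 times in each library over 11245 bases of exon (chromosome 3, 50364936 to 50443613, minus strand). A count of 4 has an exact 95% Poisson interval of 1.09 to 10.2 fragments, for counting error only, and the levels were 0.238 to 0.295 CPM. The gene did not pass the expression filter and was not tested, and a difference was not detectable at this depth.

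Hmox1, heme oxygenase 1, breaks down heme and is repressed by BACH1 until heme or NRF2 displaces it. Its level (chromosome 8, 75093591 to 75100596, plus strand) was 136 and 119 CPM without auxin and 138 and 133 CPM with it, and the groups overlapped. The change was not called (log2 fold change 0.09, 95% interval −0.07 to 0.24, adjusted p = 0.385), and without replicate 2 of the libraries without auxin it turned to −0.014, while without replicate 1 of that group it was 0.18 (adjusted p = 0.135). G6pdx, the X-linked glucose-6-phosphate dehydrogenase, makes NADPH at the head of the pentose phosphate pathway, and it alone of the 9 tested genes had a negative log2 fold change. It stood (chromosome X, 74409483 to 74429194, minus strand) at 125 and 120 CPM without auxin and at 115 and 106 CPM with it, without overlap. The value was −0.15 (95% interval −0.29 to −0.01, adjusted p = 0.0971). It passed without auxin replicate 1 (−0.21, adjusted p = 0.0410) and with the replicate block (−0.15, adjusted p = 0.00263). It was −0.09 without auxin replicate 2 (adjusted p = 0.497) and −0.05 with plain library totals (adjusted p = 0.535). Its autosomal copy G6pd2 had 0 fragments in each library, which allows up to 3, and the level of G6pdx may miss reads that match both copies. Of the exon bases of G6pdx, 13.6% overlap Ikbkg on the opposite strand, and 11.4% of those of Keap1 and 5.3% of those of Gclm overlap predicted genes on the opposite strand. Reads were counted by strand, which keeps such pairs apart.

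Per kb of exon, the order of the genes without auxin was Txnrd1, Gsr, Hmox1, G6pdx, Nfe2l2, Gclc, Gclm, Keap1, Srxn1 and Slc7a11. Txnrd1 led with 85.8 ± 1.21 CPM per kb (SD, n = 2), Gsr followed with 66.6 ± 0.108 and Hmox1 with 59.0 ± 5.61. G6pdx stood at 39.8 ± 1.19 and Nfe2l2 at 35.5 ± 2.24 CPM per kb. Gclc stood at 19.7 ± 1.11 and Gclm at 14.0 ± 1.24 CPM per kb. Keap1 stood at 13.3 ± 0.334 and Srxn1 at 10.3 ± 0.539 CPM per kb. Gclm and Keap1 overlapped between their libraries, and no other neighbours did. With auxin, Nfe2l2 (43.3 ± 1.88 CPM per kb) stood above G6pdx (35.9 ± 2.06). Srxn1 (22.5 ± 3.39 CPM per kb) moved past Keap1 (14.3 ± 0.140) and Gclm (19.0 ± 2.66) to seventh place, where its libraries overlapped those of Gclc above and Gclm below.

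**Figure D2:**
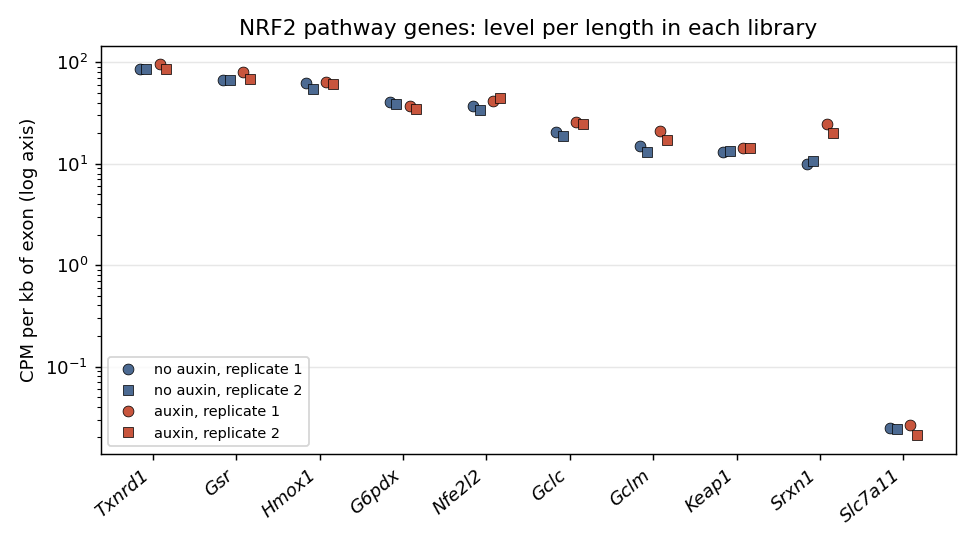
Level of each of the 10 genes in each library, in CPM per kb of exon on a log axis, with circles for replicate 1, squares for replicate 2, blue without auxin and red with auxin. Srxn1 goes from 10.3 to 22.5 CPM per kb on average, past Keap1 and Gclm, and Slc7a11 lies far below the rest.

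H3K27me3, the mark of Polycomb-repressed chromatin, was not found at the starts of these genes in cells without auxin. None of the 10 genes had a peak within 1 kb of its annotated 5′ end in either deposited list. Of 32968 placed genes, 9.09% had one by ChIP-seq and 13.2% by CUT&RUN. Shares this low can leave a list of 10 genes without a peak. The placed genes also include those that did not pass the expression filter, unlike all of the 10 but Slc7a11. No peak lay within the body of any of them. Within 5 kb, the ChIP-seq list had a peak near Keap1 and near Srxn1, and the CUT&RUN list near Keap1 only, against 18.1% and 24% of placed genes. The Keap1 peaks lay 3829 and 4152 bases away, over the neighbouring gene S1pr5. The ChIP-seq peak lay at chr9:21243161-21244867 with the authors' fold enrichment of 3.47. The Srxn1 peak lay 3336 bases from its 5′ end, at chr2:152101764-152102180, under no annotated gene, with a fold enrichment of 3.01. The −log10 q was 2.02 for the Keap1 peak by ChIP-seq and 1.14 by CUT&RUN. For the Srxn1 peak it was 1.32. Slc7a11, the barely detected gene, had its nearest CUT&RUN peak 88858 bases from its 5′ end. That peak lay beyond the 3′ end of the gene, at chr3:50353943-50354755. Its nearest ChIP-seq peak lay 940570 bases from the 5′ end. The enrichments and q values are the authors' values for 1 sample per assay, without a replicate check.

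The other genes of the pathway were read from lists of known roles, also chosen with earlier results of these data known. Among 119 tested companion genes there were 39 that rose and 22 that fell, while 58 were not called. Of the listed genes, 12 stand on more than 1 list. The edgeR rises were 32.8% and the falls 18.5% of the tested companion genes, against 13.0% and 14.5% of all genes tested. DESeq2 called 24 companion genes higher and 12 lower.

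Further NRF2 targets held more rises than any other list. With 29 tested, 15 rose and 3 fell, leaving 11 not called. The rises were 51.7% and the falls 10.3%, against 13.0% and 14.5% of all genes tested. The median log2 fold change was 0.41. Nqo1, the quinone reductase that is also a target of the aryl hydrocarbon receptor, stood at 78.0 and 79.5 CPM without auxin and at 181 and 158 CPM with it, a rise of 2.16-fold (edgeR adjusted p = 2.4e-06). Biliverdin reductase B (Blvrb), also on the heme and iron list, rose 2.00-fold, from 20.4 and 22.0 CPM to 44.2 and 41.0 CPM. Biliverdin reductase A (Blvra), on the heme and iron list only and named after its values were seen, was not called (log2 fold change 0.27, edgeR adjusted p = 0.235). Blvrb RNA per kb was 0.229 and 0.283 of Hmox1 RNA without auxin, and 0.490 and 0.472 of it with auxin. The autophagy receptor Sqstm1 (p62), which binds KEAP1 and is itself an NRF2 target, rose 1.43-fold, from 267 and 271 CPM to 383 and 388 CPM. Akr1b8, an aldo-keto reductase, fell 1.40-fold, the ferritin light chain Ftl1 fell 1.13-fold and transketolase (Tkt) fell 1.12-fold. The ferritin heavy chain Fth1, named after its values were seen, was not called (log2 fold change 0.00, 95% interval −0.17 to 0.17), and its difference from Ftl1 was not tested. Also named after their values were seen were Cbr3 and Osgin1, both called higher. Cbr3, a carbonyl reductase, rose 2.55-fold, and Osgin1 had only 1 and 4 fragments without auxin and 15 and 11 with it. Osgin1 passed the expression filter through the auxin libraries alone and so had to differ. Without it, 14 of 28 tested targets rose, with a median log2 fold change of 0.40. Gsta1, Gsta2, Mgst1 and Abcc2 had at most 9 fragments in any library and were not tested.

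Regulators of NRF2 changed in both directions. With 18 tested, 7 rose and 4 fell, leaving 7 not called. The rises were 38.9% and the falls 22.2%, against 13.0% and 14.5% of all genes tested. The median log2 fold change was 0.07. Besides Sqstm1, the repressor Bach1 rose from 77.6 and 74.2 CPM to 120 and 107 CPM. Its log2 fold change was 0.58 with an SE of 0.07 (edgeR adjusted p = 0.000198). Nfe2, an erythroid relative of Nfe2l2, rose 2.26-fold, from 5.20 and 7.39 CPM to 14.3 in both auxin libraries. Nfe2l2 RNA per kb was 2.95 and 2.82 times Bach1 RNA without auxin and 2.15 and 2.57 times with it. Rbx1, the RING subunit of the KEAP1 ligase, fell 1.24-fold, Park7 (DJ-1) fell 1.20-fold and Bach2 fell 1.37-fold. Cul3, the scaffold of that ligase, had a log2 fold change of −0.04 (SE 0.05) and was named after its values were seen.

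Among glutathione, thioredoxin and peroxide genes, 30% were called higher and 13.3% lower, against 13.0% and 14.5% of all genes tested, so the share of lower calls was near the background. With 30 tested, 9 rose and 4 fell, leaving 17 not called, with a median log2 fold change of 0.06. Ggt7, 1 of the 9 (7 and 5 fragments without auxin, 11 and 23 with it), passed the expression filter through the auxin libraries alone. Without it, 8 of 29 rose, with a median of 0.04. Glutathione synthetase (Gss), which completes the step that follows glutamate-cysteine ligase, rose 1.91-fold, from 42.6 and 43.9 CPM to 84.9 and 80.5 CPM (edgeR adjusted p = 6.27e-06). Its log2 fold change was 0.94 (SE 0.07), beside 0.36 for Gclc and 0.44 for Gclm, and the difference between these genes was not tested. Prdx6, a peroxiredoxin reduced by glutathione, rose 1.52-fold, and the glutaredoxin Glrx rose 1.76-fold. Prdx2, a typical 2-Cys peroxiredoxin of the kind that sulfiredoxin repairs, fell 1.21-fold, and the reductase Txnrd3 fell 1.56-fold from under 6 CPM. The peroxiredoxins Prdx1, Prdx3 and Prdx4 of the same list, named after their values were seen, were not called (log2 fold changes −0.16, −0.01 and −0.11). The glutaredoxin Glrx3 fell 1.14-fold.

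The NADPH and pentose phosphate list was split evenly. With 16 tested, 4 rose and 4 fell, leaving 8 not called. The rises and the falls were 25% each, against 13.0% and 14.5% of all genes tested. The median log2 fold change was −0.11. Malic enzyme (Me1) rose 1.72-fold, from 43.5 and 41.8 CPM to 78.1 and 68.8 CPM. Hexose-6-phosphate dehydrogenase (H6pd), the endoplasmic reticulum counterpart of G6pdx, rose 1.98-fold, from 39.3 and 35.4 CPM to 83.0 and 65.5 CPM (edgeR adjusted p = 9.86e-05). 6-phosphogluconate dehydrogenase (Pgd), which makes the second NADPH of the cytosolic pathway, rose 1.33-fold. The mitochondrial transhydrogenase Nnt fell 1.38-fold and the folate enzyme Mthfd2 fell 1.23-fold. Tkt, on this list too, fell by the smaller amount given above.

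On the heme and iron list, 7 of 20 tested genes rose and 3 fell, and the median log2 fold change was 0.17. Higher calls made up 35% and lower calls 15%, against 13.0% and 14.5% of all genes tested. The share of lower calls on this list was thus near the background. Besides Blvrb, the porphyrin transporter Abcb6 rose 1.25-fold and ferrochelatase (Fech), the last enzyme of heme synthesis, rose 1.27-fold. The iron chaperones Pcbp1 and Pcbp2 fell 1.17-fold and 1.19-fold, beside Ftl1. On the cystine and ATF4 list, which holds genes that share stress control with Slc7a11, 2 of 18 tested genes rose and 6 fell. The rises were 11.1% and the falls 33.3%, so here the share of higher calls was near the background. The median log2 fold change was −0.07. Atf4 fell 1.25-fold, from 225 and 232 CPM to 171 and 196 CPM. The transsulfuration enzyme Cth fell 1.27-fold and the serine pathway enzyme Shmt2 fell 1.19-fold. Atf3 rose 2.05-fold and Nupr1 2.12-fold, both from under 5 CPM.

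**Figure D3:**
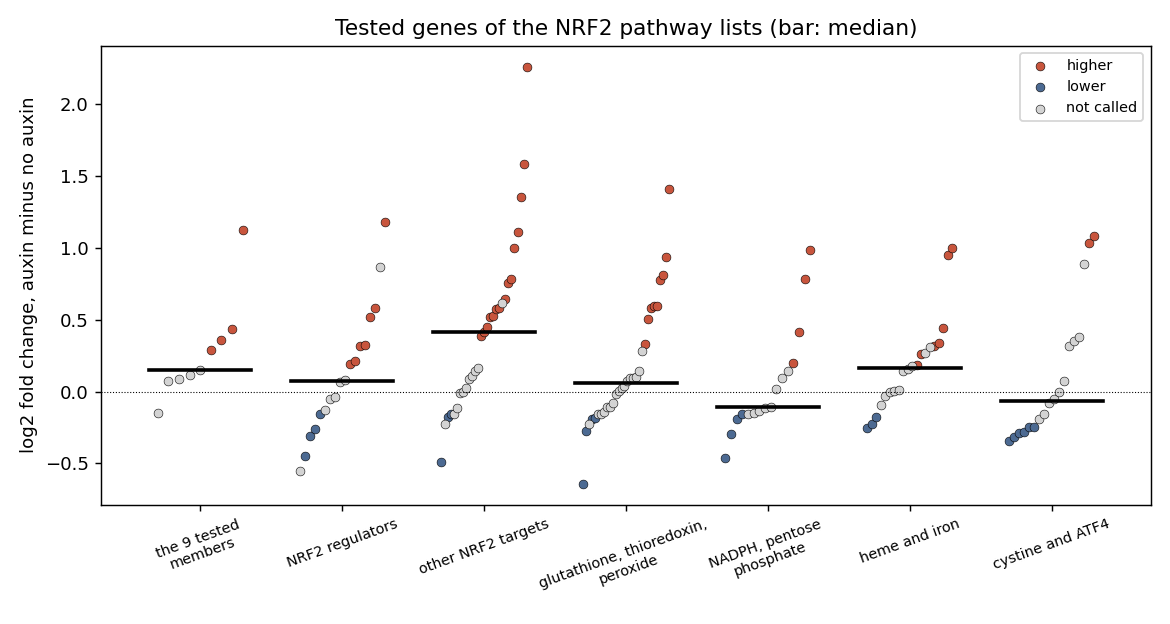
Log2 fold change of each tested gene (points) of the 10 genes' list and of the 6 companion lists along the x axis, coloured by call, with a bar at each median. The median of further NRF2 targets is 0.41, and those of the other companion lists lie between −0.11 and 0.17.

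Several calls were lost when a library was left out, for Bach2, Ftl1 and Glrx3 without replicate 1 or 2 of the libraries without auxin at nearly the same log2 fold change. Bach2 stood at −0.45 and −0.46 there, beside −0.45 with all libraries, Ftl1 at −0.18 and −0.19 beside −0.18, and Glrx3 at −0.18 and −0.20 beside −0.18. Without replicate 1 of the libraries without auxin, the calls were lost for Bach2 (adjusted p = 0.0840), Ftl1 (0.105), Tkt (0.0888), Glrx3 (0.147), Fech (0.0683) and Pcbp1 (0.0536), all by edgeR. Without replicate 2 of that group, they were lost for Bach2 (0.0667), Ftl1 (0.0573), Tkt (0.165), Txnrd3 (0.0918), Glrx3 (0.0939), Mthfd2 (0.0626), Abcb6 (0.0595) and Nupr1 (0.0849). Tkt lost its call without auxin replicate 1 (0.173). Without auxin replicate 2, Bach2 (0.163), Ftl1 (0.0903), Txnrd3 (0.122), Glrx3 (0.207) and Nupr1 (0.151) were not called. With plain library totals, the calls of Park7, Bach2, Ftl1, Tkt, Txnrd3, Glrx3, Mthfd2, Pcbp1 and Shmt2 were lost. With DESeq2, those of Bach2, Tkt, Txnrd3, Glrx3, Fech and Nupr1 were lost, and with upper-quartile factors those of Tkt and Glrx3. Apart from Nfe2l2, each gene that rose or fell and is absent from these sentences, among those named by the rule given with the methods, kept its call whichever library was left out.

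**Figure D4:**
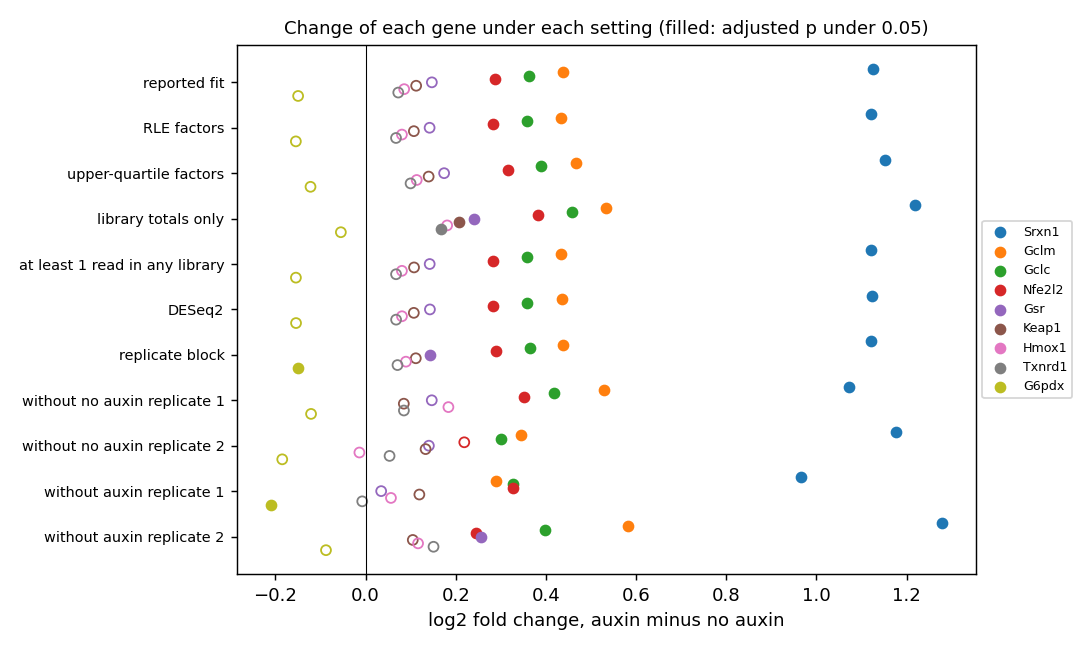
Log2 fold change (x axis) of the 9 tested genes, by colour, under the reported fit and 10 other settings (y axis), filled where the adjusted p was under 0.05. Srxn1 stays between 0.97 and 1.28 and is filled throughout, as are Gclm and Gclc, while Gsr, Keap1, Txnrd1 and G6pdx are filled under some settings only.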

How the data were processed

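The authors deposited raw fragment counts per gene name, made by featureCounts 1.6.3 from paired, reverse-stranded reads over mm10 exons, per the file headers, and STAR 2.6.1d is named in the submitters' processing notes. The deposited peak lists give, per broad peak, a score, a fold enrichment and −log10 p and q values, with MACS2 2.1.1 named in the submitters' processing notes. Which control and cutoff the peaks used is not given in the sources used here.

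For the counts, the test was edgeR's (version 4.0.16, under R 4.3.3; TMM, default expression filter, quasi-likelihood F test, two-sided, Benjamini-Hochberg over 13522 genes, threshold 0.05), 2 libraries against 2, with no block. SE is the size of the log2 fold change divided by the root of F, and 95% intervals use the total degrees of freedom. Alternatives were other scalings and filters, DESeq2 1.42.0, a replicate block and leaving out each library. Leaving out genes that passed the expression filter in 1 group only was added after seeing the data.

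Members and lists were chosen with earlier results of these data known. Named companions are, per list, up to 3 passing genes with the smallest p in each direction. No label says that replicates were separate cultures, so p-values reflect only how these libraries vary, possibly for technical reasons. Replicates were not copies of each other (chi-square per gene of 4 without auxin and 11.9 with auxin). Promoter windows are RefSeq's.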

Additional observations from a re-analysis of the deposited data

How the results depend on the processing

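Of the 10 genes, Srxn1, Gclm and Gclc kept their calls under all 10 other settings. The count of higher calls among the 10 was 7 with plain library totals and 3 to 5 with a library left out, and that of lower calls was 1 with the replicate block and 0 to 1 with a library left out. With a library left out, Hmox1 ran from −0.014 to 0.18 and Txnrd1 from −0.0074 to 0.15 on the log2 scale. Over all genes, higher and lower calls were 2735 and 988 with plain library totals, 949 and 1375 with DESeq2, and 2972 and 3177 with the replicate block. Leaving out a library gave 1225 to 1705 higher and 1257 to 1914 lower calls. The replicate numbers are shared only as numbers: over genes, the difference between replicates 1 and 2 correlated by 0.227 between the groups, and no label says what a number stands for.

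Among all companion genes, DESeq2 called 24 higher and 12 lower, plain library totals called 7 lower, and leaving out a library gave 13 to 20 lower. Among NRF2 regulators, lower calls were 1 with library totals, 2 with DESeq2 and 2 to 3 with a library left out. Among further targets, they were 1 with library totals, 5 with at least 1 read in any library, 6 with the replicate block and 1 to 4 with a library left out. Among glutathione, thioredoxin and peroxide genes, they were 2 with upper-quartile factors, 1 with library totals, 1 with DESeq2 and 8 with the replicate block. Among NADPH genes, they were 2 with upper-quartile factors, 1 with library totals, 2 with DESeq2, 8 with the replicate block and 1 to 4 with a library left out. On the heme and iron list, higher calls were 2 with DESeq2 and 3 to 6 with a library left out, and lower calls 1 with library totals and 1 to 3 with a library left out. On the cystine and ATF4 list, higher calls were 4 with at least 1 read in any library, 1 with DESeq2, 4 with the replicate block and 1 to 5 with a library left out. Lower calls there were 2 with library totals, 3 with DESeq2 and 3 to 5 with a library left out. The cause of these moves was not tested. With 5 kb in place of 1 kb, 2 genes had an H3K27me3 peak by ChIP-seq and 1 by CUT&RUN. Leaving out Osgin1 and Ggt7, which passed the expression filter in 1 group only, an alternative chosen after seeing the data, left 37 higher and 22 lower calls among 117 companion genes. Depth limits Slc7a11, and 2 libraries per group limit the intervals.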
